A study of Mus musculus with 3 samples.

Results

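The comparison described here is that of CT26.WT cells given recombinant mouse S100a9 with the control cells, over all genes the arrays could measure. CT26.WT is a mouse colon carcinoma line grown as a culture. The members are the S100a9 array and the control array, 2 of the 3 arrays of the study, chosen by their labelled agent; the other array holds cells given S100a8 and is used only where a value beside it helps. Of 18193 genes with a probe set that names a single gene, 11138 had a brightest probe set whose mean signal lay above the floor, a signal of 75.97 that is the 50th percentile of all values. Each array held the RNA of 1 culture, so no test could be run and nothing below carries a replicate error.

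All cultures were the same line in medium without serum. The protein cultures spent 12 h in it before S100a9 (or S100a8) was added at 4 µg/ml, and RNA was taken after 24 h more. No such time is recorded for the control, whose labels do not agree on what it received: the title has BSA, bovine serum albumin, but normal saline stands in its description and in the design of the series. The labels name no knockdown, transgene or receptor deletion in any culture. Total RNA was labelled and hybridised to the Affymetrix Mouse Genome 430 2.0 array, which reports 1 intensity per probe set.

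S100a9 belongs to a family of small calcium-binding proteins and is stored in large amounts by neutrophils and monocytes, which release it at inflamed sites. Outside the cell it is described as a ligand of Tlr4, which works with its partner Ly96 (MD-2) and signals through Myd88 to free NF-kB from its IkB inhibitors. NF-kB then switches on chemokine and cytokine genes, and also the genes of its own inhibitors, so IkB and A20 transcripts are commonly read as a measure of its activity. The same receptor can start an interferon loop that ends at genes with an interferon-stimulated response element, or ISRE.

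In CT26.WT cells given S100a9, the largest differences among genes with a single symbol were lower signals of inflammatory genes. The chemokine genes Cxcl10, Ccl2 and Ccl20 were 2.84-, 2.74- and 2.51-fold lower, and the NF-kB inhibitor genes Nfkbie and Tnfaip3 had log2 ratios of −1.32 and −1.03. The antiviral gene Rsad2 had a log2 ratio of −1.05, while most other listed interferon-inducible genes and the cholesterol synthesis genes differed by smaller amounts. On the other side, Serpinb9b, which encodes a clade B inhibitor of serine proteases, had a log2 ratio of 1.32, and Id3, a repressor of helix-loop-helix transcription factors, had one of 0.96.

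Most genes had nearly the same signal on both arrays. Of the 11138 compared genes 5703 (51.2%) were higher with S100a9 and 5354 (48.1%) lower, the median log2 ratio was 0.0045 with an SD over genes of 0.192, and 9397 genes (84.4%) lay within 0.25 of 0. The tails were uneven. At least 2-fold, 1 gene was higher (0.00898% of those compared) and 16 were lower (0.144%), and at least 1.5-fold, 28 were higher (0.251%) and 95 lower (0.853%). With quantile normalization the 1.5-fold counts became 40 higher and 78 lower, so lower genes made up 66.1% of them in place of 77.2%.

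**Figure D1:**
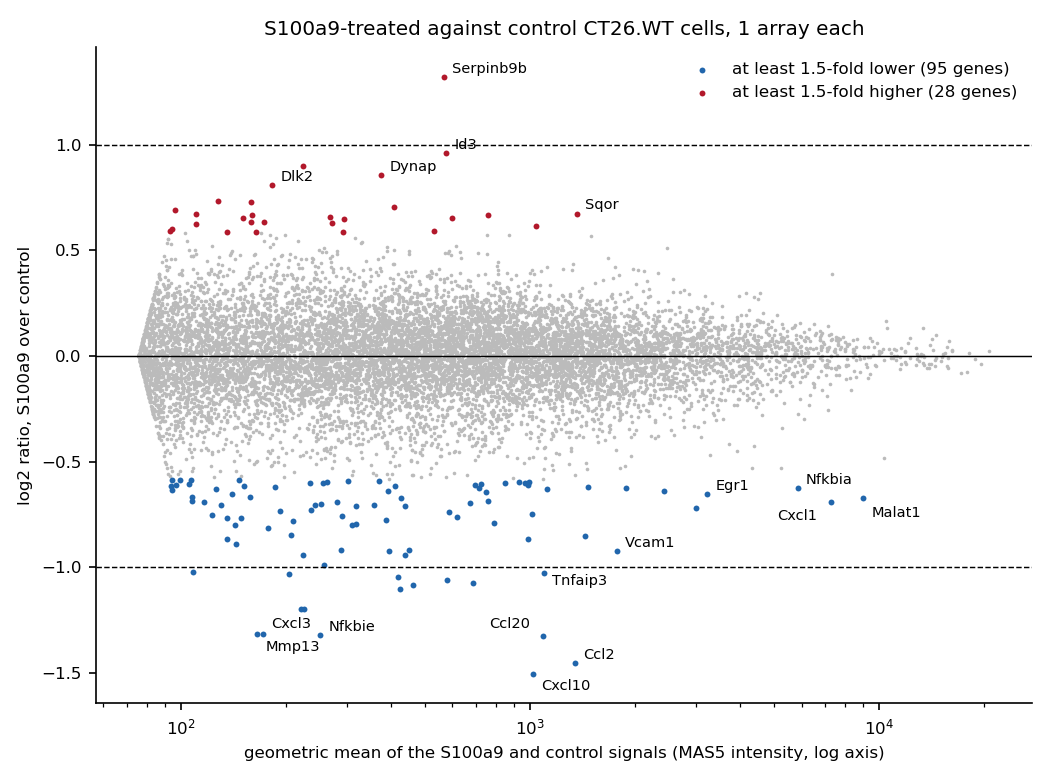
Each point is 1 of 11138 compared genes, placed by the geometric mean of its S100a9 and control signals (MAS5 intensity, log axis) and by its log2 ratio, S100a9 over control; dashed lines mark 2-fold. The 95 genes at least 1.5-fold lower (blue) reach further from 0 than the 28 genes at least 1.5-fold higher (red), and the cloud narrows with brightness.

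Several measures describe how far these 2 arrays differed at single probe sets. None of them shows how far 2 cultures given the same treatment would differ. The 18 hybridization spike-ins, bacterial transcripts added to the labelled cRNA, had a median log2 ratio of −0.013 with an SD of 0.078. Over 4948 genes with a further probe set above the floor, the difference between the ratios of the brightest and the next brightest probe set had an SD of 0.225. The central 95% of compared genes ran from −0.45 to 0.39 among the dimmest 2785 genes and from −0.32 to 0.25 among the brightest 2785. The 24 poly-A spike-ins, which are added to the RNA before labelling, had a median of 0.28 (SD 0.096), and the 3′ to 5′ ratio of Actb was 1.56 with S100a9 and 1.44 in the control. The part of these 2 differences in the ratios below was not tested.

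The promoters of 3 chemokine genes and that of an NF-kB inhibitor are shown because their genes were lower and hold the same short motif. The windows are 50 bases long and lie within the 250 bases before the RefSeq start in build GRCm38.p6, 5′ to 3′ on the strand of the gene, with matches to GGGANNTTCC on either strand in capitals; 2 overlapping matches, 1 on each strand, form the longer runs of Cxcl1 and Cxcl3. Of 32851 promoters searched over the same 250 bases before the start, 1.21% held this motif, as did 1.42% of compared genes with a promoter. Among compared genes with a promoter in the table, it was found in 2 of 3 neutrophil chemokine genes (Cxcl1 and Cxcl3). In the NF-kB inhibitor list 2 of 13 genes held it, Nfkbia and Cyld, of which Cyld was nearly equal to control (−0.01). It was also found in 3 of 16 antiviral effector genes, Ifit2, Ifitm3 and Isg20, of which Ifit2 and Isg20 were not below control.
Cxcl1: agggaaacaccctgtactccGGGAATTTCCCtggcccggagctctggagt
Cxcl3: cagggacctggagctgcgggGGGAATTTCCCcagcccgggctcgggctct
Cxcl10: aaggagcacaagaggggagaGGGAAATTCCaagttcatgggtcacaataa
Nfkbia: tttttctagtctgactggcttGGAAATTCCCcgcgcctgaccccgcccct
They lie at chr5:90891154-90891203 (Cxcl1, plus strand), chr5:90786008-90786057 (Cxcl3, plus), chr5:92349019-92349068 (Cxcl10, minus) and chr12:55492648-55492697 (Nfkbia, minus). A match of letters describes the window and does not show that a factor binds there.

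Most of the listed neutrophil-attracting chemokines that were bright enough to compare were lower. Of 7 listed genes 4 were compared, 4 of 4 were below control and 3 reached 1.5-fold, with a median log2 ratio of −0.88 (all compared genes 0.0045). Cxcl1, the mouse counterpart of human GRO chemokines, had a signal of 5744 with S100a9 and 9268 in the control, a log2 ratio of −0.69. Its further probe sets gave −0.82 and −0.70. Cxcl3, a near relative, had 109 and 271 (−1.32). Cxcl5, which also binds the receptor Cxcr2, had 473 and 996 (−1.07). The platelet chemokine Pf4 was dim, close to the floor, and nearly equal on both arrays (76.8 and 77.9). With quantile normalization 3 of the 4 genes were below control and 1 was above. Cxcl2 was not compared, since its mean over the arrays lay under the floor; its signals were 41.7 with S100a9 and 105 in the control.

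Chemokines for monocytes and T cells split between large and small differences. Ccl2, the principal monocyte attractant, had signals of 813 with S100a9 and 2227 in the control (−1.45). Ccl7, another monocyte attractant, had 198 and 322 (−0.70). Ccl20, which recruits cells bearing Ccr6 to mucosal surfaces, had 690 and 1733 (−1.33). These 3 genes were well below control, while the other compared members of their list, Ccl28, Ccl4, Ccl24, Ccl25 and Ccl9, had ratios from −0.02 to 0.20. Cxcl10, the interferon-inducible ligand of Cxcr3, had the lowest ratio of all compared genes, with 604 against 1715, which is 2.84-fold lower. Ccl5, an attractant of T cells and monocytes, was not lower, with 366 against 334 (0.13).

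Some of these genes are neighbours in the genome. Ccl2 and Ccl7 lie next to each other on chromosome 11 with 0 protein-coding genes between them. Cxcl5, Cxcl3 and Cxcl1 lie in 1 cluster on chromosome 5, with 2 and 1 genes between them, followed after 3 genes by Ereg, which encodes the EGF receptor ligand epiregulin (1180 against 1817, −0.62). The metalloproteinase genes Mmp13, Mmp3 and Mmp10 form such a cluster on chromosome 9. On the higher side, Serpinb9 and Serpinb9b adjoin on chromosome 13.

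Genes of the list of NF-kB inhibitors and brakes were lower almost throughout. Not every member acts only to restrain NF-kB, as with Birc3, Traf1, Nfkbiz and Tnfaip2. Of 15 compared members 14 were below control with a median log2 ratio of −0.46, and 6 reached 1.5-fold. Nfkbie, which encodes IkB epsilon, had 159 with S100a9 and 396 in the control (−1.32). Its other probe set gave −1.30. Tnfaip3 encodes A20, an enzyme that edits ubiquitin on signalling proteins, and had 769 against 1566 (−1.03; further probe set −0.95). Nfkbia, the gene of IkB alpha, had 4709 against 7258 (−0.62). Its 4 further probe sets ran from −0.78 to −0.59, so all 5 were well below control. Birc3, a ubiquitin ligase of the inhibitor-of-apoptosis family, was at −0.80, but its dimmer probe set was at 0.13. The adaptor gene Traf1 was at −0.80 and Zc3h12a, whose product (Regnase-1) degrades inflammatory mRNAs, at −0.76. Nfkbib was at −0.56, Nfkbid at −0.46, Nfkbiz at −0.38 and Tnip1 at −0.28. The deubiquitinase gene Cyld was nearly equal (−0.01), and N4bp1 was the member above control (0.23).

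Among the 8 compared subunits and kinases of NF-kB, 7 were lower (median −0.28), with Relb and Nfkb2 furthest. Relb, a subunit of the non-canonical dimer, had 598 with S100a9 and 1035 in the control (−0.79). Nfkb2, the precursor of its partner p52, had 811 and 1227 (−0.60; further probe set −0.48). Rela, the main transactivating subunit, was nearly equal (2366 and 2464, −0.06), as was the kinase gene Ikbkb (807 and 837, −0.05). Ikbke was at −0.42, Tbk1, a kinase of the interferon pathway, at −0.33 and the subunit gene Rel at −0.23. Ikbkg, the scaffold of the IkB kinase complex, was above control (614 against 506, 0.28).

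On the receptor side 1 gene was at least 1.5-fold lower. Tlr4 itself had signals of 404 with S100a9 and 380 in the control (0.09) on its brightest probe set. A further Tlr4 probe set was higher with S100a9 (380 against 289). A dim one was lower (75.2 against 91.4), and another lay under the floor on both arrays (62.0 and 73.5). Cd14, the co-receptor of Tlr4, had 1418 and 1413. Ly96, the partner that lets Tlr4 bind its ligand, had 280 and 456, a log2 ratio of −0.70. Irak2, a kinase downstream of Myd88, followed at −0.45, and Myd88 was at −0.25. Over all 16 compared genes of the Tlr4 complex and its adaptors, 7 were higher and 9 lower with a median of −0.03. The S100a9 transcript of the cells lay under the floor on both arrays (24.2 and 37.1).

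Single genes of other inflammatory lists were lower, although the lists as a whole were near control. The medians were 0.02 for 7 adhesion molecules, 0.05 for 4 colony-stimulating factors and their receptors, −0.04 for 10 IL-6 family genes and −0.02 for 8 prostaglandin and bradykinin genes. Vcam1, a cell surface ligand of integrins on leukocytes, had 1288 with S100a9 and 2442 in the control (−0.92), with further probe sets at −0.99 and −0.68. Csf1, the macrophage growth factor, had 1069 against 1932 (−0.85), and its further probe sets ran from −0.56 to −0.16. Lif, a cytokine of the IL-6 family, had 318 against 675 (−1.09) on its brightest probe set, whereas its other probe set gave 0.14. Among other IL-6 family genes, Stat3 (0.06) and Socs3 (0.07) were near control. Ptgds, a prostaglandin D synthase, was at −0.80 and its further probe set at −1.46. Bdkrb2, the bradykinin receptor B2, had 146 against 335 (−1.20), but a dimmer probe set gave 0.19. Acod1, which makes the antimicrobial metabolite itaconate, had 143 against 293 (−1.03). Ptgs2, the inducible cyclooxygenase, was less far below control (3165 against 3778, −0.26). The iron-scavenging protein gene Lcn2 was higher (700 against 502, 0.48), and so the list of innate defence effectors had a median of −0.08 with 5 of 8 lower.

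**Figure D2:**
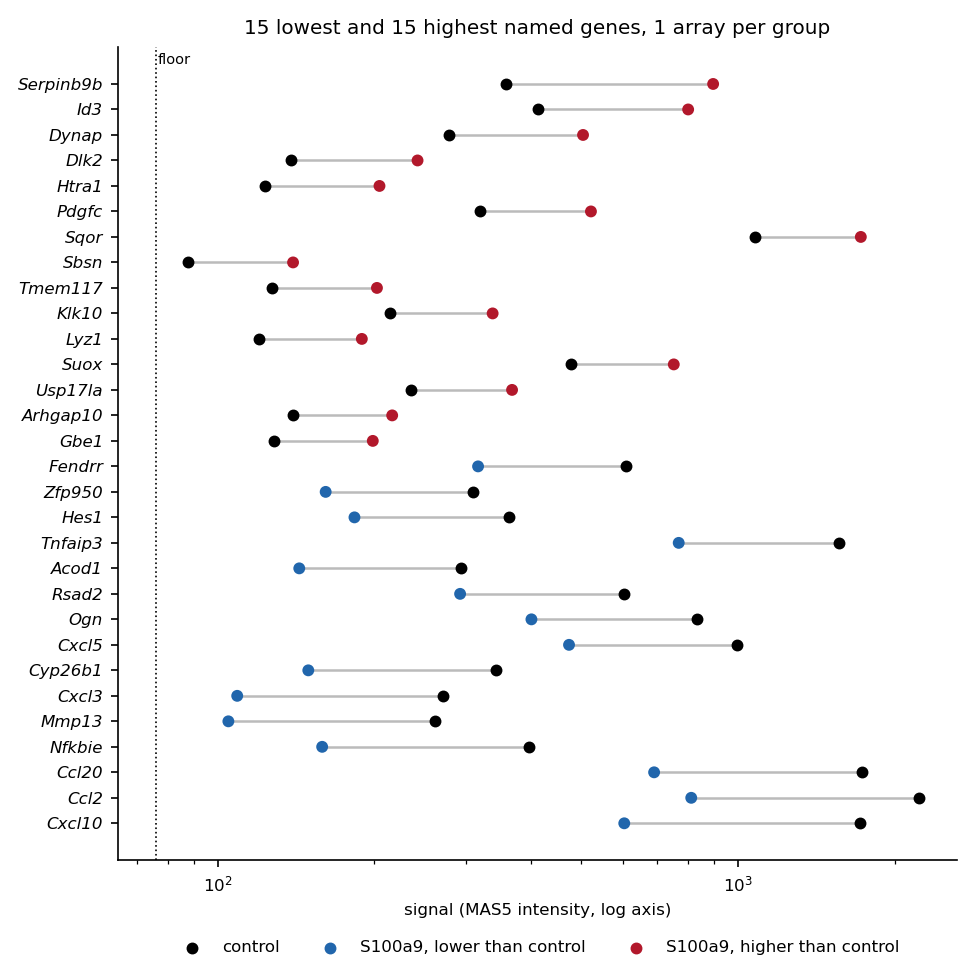
Signals (MAS5 intensity, log axis) of the 15 genes with the highest and the 15 with the lowest log2 ratios under the naming rule, on the control array (black) and the S100a9 array (blue lower, red higher); 1 array each, and the dotted line is the floor of 75.97. Distances between the points of a gene are largest for Cxcl10, Ccl2 and Ccl20 at the bottom.

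Agreement between probe sets of a gene differed from gene to gene. In these counts the brightest probe set of a gene was set beside its next brightest alone. Of 34 genes at least 1.5-fold lower that had a further probe set above the floor, 26 had the next brightest lower too. The median of the next brightest over the 34 genes was −0.52. Of 11 such genes at least 1.5-fold higher, 9 agreed in direction (0.53). Of 7 genes at least 2-fold lower, 4 agreed. The exceptions named here are Lif, Bdkrb2 and Fubp1. Fubp1, which encodes a DNA-binding regulator of Myc, had 1 probe set higher (0.30) and 3 lower (−1.23 to −0.67). Over all 4948 genes with a further probe set, 3130 (63.3%) had the same sign on the brightest and the next brightest.

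**Figure D3:**
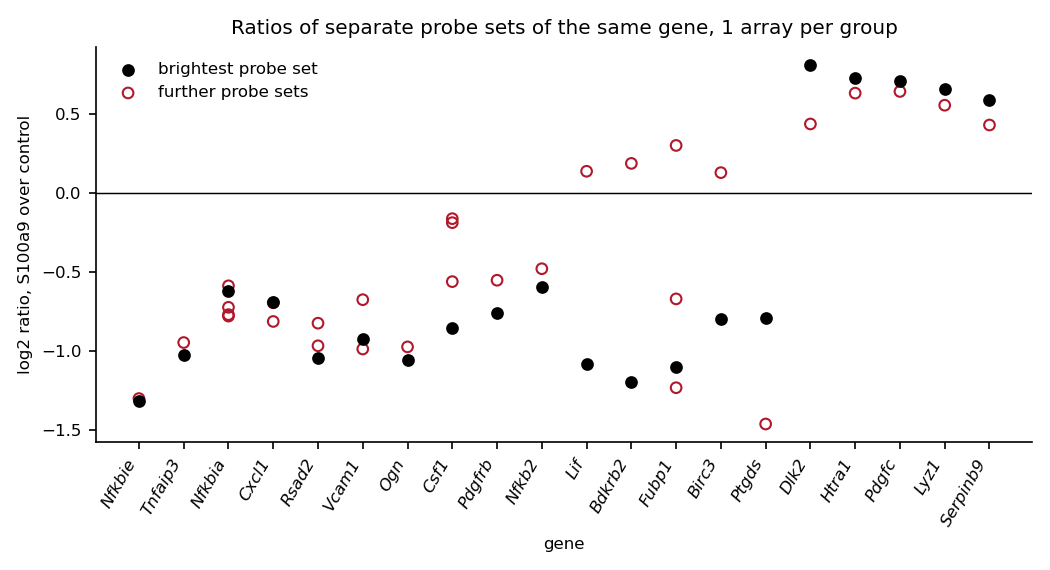
Log2 ratios, S100a9 over control, of the brightest probe set (black) and each further probe set above the floor (red open circles) of 20 genes, 1 array per group. The probe sets of Nfkbie, Tnfaip3, Nfkbia, Cxcl1, Rsad2, Vcam1 and Ogn lie close together, while Lif, Bdkrb2, Fubp1 and Birc3 have a further probe set above 0.

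The listed interferon-inducible GTPases were lower by less than 1.5-fold. All 7 compared members of the list lay below control, from −0.57 to −0.35, with a median of −0.39. These proteins attack the vacuoles of intracellular microbes. Gbp3 had 544 with S100a9 and 805 in the control (−0.57) and Gbp6, a dim member, 107 against 156 (−0.54). Gbp2 (−0.41), Irgm2 (−0.39), Gbp7 (−0.39), Igtp (−0.36) and Irgm1 (−0.35) followed in a narrow range. Gbp2b, a GTPase of the same kind that is not in the list, was further from control at −0.71. Members of this family are similar in sequence and their probe sets can share signal.

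The promoters of this family are printed because 6 of the 6 members with a RefSeq promoter held GAAANNGAAA, the core of the ISRE. The search covered the 250 bases before the start. These members had 7 promoters, of which 6 held the motif. Of all promoters 2.98% did so, and of compared genes with a promoter 3.18%. Capitals mark matches on either strand, a match on the other strand reading TTTCNNTTTC, and overlapping matches form the longer runs of Gbp3 and Irgm1. Rsad2, an antiviral gene described next, is added for comparison.
Gbp2: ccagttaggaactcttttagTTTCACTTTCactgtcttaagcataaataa
Gbp3: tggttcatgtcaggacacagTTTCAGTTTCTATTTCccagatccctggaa
Gbp7: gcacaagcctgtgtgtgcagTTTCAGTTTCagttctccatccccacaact
Igtp: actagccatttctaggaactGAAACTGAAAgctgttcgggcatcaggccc
Irgm1: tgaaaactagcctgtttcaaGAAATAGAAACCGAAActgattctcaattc
Irgm2: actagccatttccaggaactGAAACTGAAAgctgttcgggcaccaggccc
Rsad2: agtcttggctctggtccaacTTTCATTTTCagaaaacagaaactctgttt
In GRCm38.p6 these are chr3:142620584-142620633 (Gbp2), chr3:142559979-142560028 (Gbp3), chr3:142530263-142530312 (Gbp7), chr11:58199502-58199551 (Igtp) and chr11:58214893-58214942 (Irgm2), all on the plus strand. Irgm1 lies at chr11:48871421-48871470 and Rsad2 at chr12:26456543-26456592, both on the minus strand.

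Antiviral effectors of the interferon response were mostly lower, over a wider range. Of 20 compared genes 17 were below control (median −0.13) and 2 reached 1.5-fold. Rsad2, which encodes viperin, had 292 with S100a9 and 604 in the control (−1.05), and its further probe sets gave −0.97 and −0.83. Ifit1, which binds viral RNA lacking a host cap, had 586 against 892 (−0.61). The receptor transporter Rtp4 was at −0.54, the ISG15 protease gene Usp18 at −0.49 and Xaf1 at −0.48. Other members were near control or above it, such as Herc6 (−0.01), Ifit2 (0.04) and the exonuclease gene Isg20 (0.25). Of 16 members with a promoter in the table, 5 held the ISRE core: Bst2, Ifit1, Ifit3, Ifitm2 and Rsad2. The kappa B motif was held by 3 of the 16: Ifit2, Ifitm3 and Isg20.

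By their medians at the main floor, the sensing and signalling genes around them differed less. Among 9 oligoadenylate synthetase genes, whose products activate an RNA-degrading enzyme, Oasl1 was lowest (785 against 1317, −0.75), while Oas1a (−0.04), Oas1c (−0.04) and Oas3 (−0.03) were near control. Parp14, an ADP-ribosyltransferase, had 295 against 507 (−0.78), and the median of the 16 compared PARP genes was −0.07. Of the receptors and factors of the pathway, Ifngr2, a chain of the interferon gamma receptor, had 338 against 539 (−0.67), the kinase gene Tyk2 was at −0.55 and the transcription factor gene Irf1 at −0.48. Irf7 (0.08) was not below control. The list's median was −0.04. This order depended on the floor. With the floor at the 65th percentile the median was −0.21 for this list, −0.40 for the oligoadenylate synthetases and −0.12 for the antiviral effectors.

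The genes of antigen presentation were slightly lower. Of 17 compared genes for MHC class I presentation 12 were below control and 0 by 1.5-fold, with a median of −0.13. The heavy chain genes H2-K1 (5503 against 6765, −0.30) and H2-D1 (5322 against 6439, −0.27) were lowest, and the light chain gene B2m was nearly equal (0.02). Cd274, the checkpoint ligand PD-L1, was dim at 114 against 194 (−0.77). Other checkpoint ligand genes lay on both sides, from Pvr (−0.22) to Nectin2 (0.33).

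Cxcl10, which both NF-kB and interferon signals are known to induce, has both motifs in its 250 upstream bases, which are printed to show their places. The ISRE core comes first and the kappa B match follows it without overlap (chr5:92348890-92349139, minus strand, GRCm38.p6).
Cxcl10: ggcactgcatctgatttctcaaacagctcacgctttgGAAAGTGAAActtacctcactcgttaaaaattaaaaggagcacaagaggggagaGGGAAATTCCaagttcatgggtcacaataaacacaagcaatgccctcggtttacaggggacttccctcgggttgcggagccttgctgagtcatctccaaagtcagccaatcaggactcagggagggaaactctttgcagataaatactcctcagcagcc

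Immediate-early transcription factor genes, which respond to growth factor and stress signals, were lower in part. Of 24 compared AP-1 and EGR genes 16 were below control (median −0.11) and 2 reached 1.5-fold. Egr1 had 2567 with S100a9 and 4044 in the control (−0.66), and Egr2, a dim relative, had 78.5 and 120 (−0.61). Ier3 (−0.53), Fos (−0.51) and Junb (−0.51) were lower by similar amounts. Myc (0.07) and Fosl2 (0.04) were near control, and the ERK feedback inhibitor genes had a median of 0.02 with 12 of 21 higher. In the EGF receptor family the ligand genes Nrg1 (−0.48) and Hbegf (−0.35) were lower beside Ereg, while Btc (0.03) and Tgfa (0.16) were not.

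The p53 target genes had a median of −0.20, with 17 of 23 below control and 2 by at least 1.5-fold. Ddit4, an inhibitor of mTORC1, had 1942 against 3023 (−0.64), and Gadd45b, a stress sensor that is also NF-kB inducible, 756 against 1144 (−0.60). Mdm2, the ubiquitin ligase that limits p53, was at −0.28 and Bbc3, which encodes the death effector Puma, at −0.26. Cdkn1a, the p21 cell cycle inhibitor, was at −0.20. Bcl2l11, the gene of the death effector Bim, was at −0.60, but the BCL2 family as a list had a median of −0.04.

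Matrix and protease genes differed singly. Mmp13, a collagenase, had 105 with S100a9 and 261 in the control (−1.32). Its chromosomal neighbours Mmp10 (160 against 275, −0.78) and Mmp3 (220.5 against 356, −0.69), both stromelysins, were also lower, while Mmp14 (0.17), Mmp9 (−0.05) and the inhibitor gene Timp1 (2673 against 2032, 0.40) were not. Of 22 compared collagen and proteoglycan genes 16 were lower (median −0.10). Ogn, the small proteoglycan osteoglycin, had 401 against 835 (−1.06; further probe set −0.98). Col6a1 was at −0.71 and Col5a1 at −0.63, while Col1a2 (0.07) was near control and Sparc (2920 against 2266, 0.37) higher. Pdgfrb, a receptor of platelet-derived growth factor, was at −0.76 and the ligand gene Pdgfc at 0.71. Of the 26 compared PDGF and VEGF system genes 12 were higher and 14 lower (median −0.03).

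Developmental regulators were among the extremes as well. Hes1, a repressor induced by Notch, had 183 against 363 (−0.99), and other Notch pathway genes such as Jag1 (−0.31) and Notch1 (−0.29) were lower by less. Dlk2, a membrane protein related to Notch ligands, was higher (242 against 138, 0.81; further probe set 0.44). Cyp26b1, which breaks down retinoic acid, had 149 against 342 (−1.20), and 9 of 10 compared retinoic acid genes were below control with a median of −0.15. Inhba, the activin beta A subunit, was at −0.74. Id3 had 802 with S100a9 and 412 in the control (0.96), Id1 918 and 618 (0.57), and Id2 1213 and 1033 (0.23). The BMP receptors and SMAD genes that act upstream of Id genes were near control, as with Smad1 (0.01), Smad5 (−0.01) and Bmpr1a (−0.08). Fendrr, a long noncoding RNA gene, had 316 against 608 (−0.94), and Zfp950, a zinc finger gene, 161 against 310 (−0.94).

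The cholesterol synthesis pathway was below control at nearly every step, by small amounts. Of 18 compared genes 17 were lower, 0 by 1.5-fold, and the median log2 ratio was −0.18, beside a median of 0.0045 over all genes. At the entry, Hmgcs1, which joins acetyl groups into HMG-CoA, had 4162 with S100a9 and 4850 in the control (−0.22). The mevalonate kinases Mvk and Pmvk were at −0.20 and −0.32. Mvd (−0.15) and Idi1 (−0.10) were nearer to control, and Fdps, which makes farnesyl pyrophosphate, had 4206 against 5104 (−0.28). Fdft1, the first step committed to sterols, was at −0.21. Sqle, squalene epoxidase and a known control point, was the 1 gene not below control (3851 against 3825, 0.01). The step after it, Lss, which closes the sterol rings, was the lowest (1087 against 1550, −0.51). Cyp51 (−0.21), Hsd17b7 (−0.20), Msmo1 (−0.20), Nsdhl (−0.14), Sc5d (−0.14), Ebp (−0.12), Tm7sf2 (−0.10) and Dhcr7 (−0.08) were lower by less, and Lbr was equal within 0.01. With each array centred on its median all 18 were below control, and with quantile normalization 16 were.

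**Figure D4:**
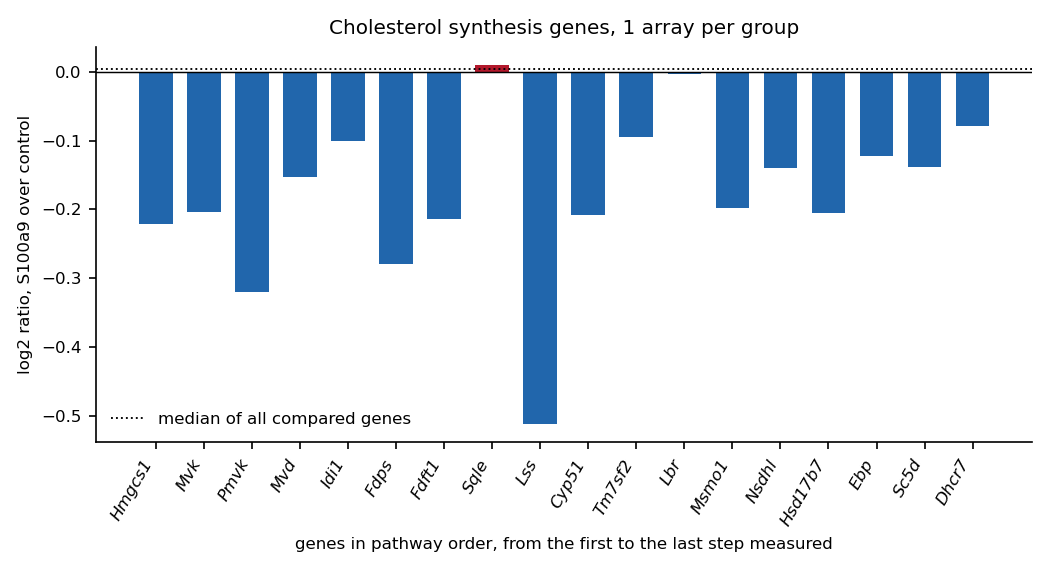
Log2 ratio, S100a9 over control, of the 18 compared cholesterol synthesis genes from the first to the last step measured, 1 array per group; the dotted line is the median of all compared genes (0.0045). All bars except that of Sqle (0.01) point down, Lss furthest at −0.51.

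Genes that control sterol and fatty acid supply were mixed. Insig1, which holds the sterol sensor in the endoplasmic reticulum, had 4682 against 5933 (−0.34), Stard4, a sterol carrier, was at −0.28 and Srebf2, the transcription factor of the sterol pathway, at −0.24. Abca1, the cholesterol exporter, was higher (0.19), and the list's median was −0.07. Lpin1, a phosphatidate phosphatase, was lowest at −0.61. Fatty acid synthesis genes split evenly, 11 higher and 11 lower with a median of −0.01, including Scd1 (−0.13) and Fasn (0.16).

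Upstream sequences of a gene at the entry and of the lowest gene are printed because all 15 cholesterol genes with a RefSeq promoter held CCAAT on either strand, against 40.6% of compared genes with a promoter. Capitals mark CCAAT, which reads ATTGG on the other strand, and in Hmgcs1 also TCACNCCAC, a core of the sterol response element. That motif was searched on both strands and was found in 1.05% of all promoters and in 1.22% of compared genes with a promoter. Of these 15 genes, Hmgcs1 alone held it. The 2 motifs do not overlap there. The regions are chr13:119690101-119690350 for Hmgcs1 and chr10:76531355-76531604 for Lss, both on the plus strand.
Hmgcs1: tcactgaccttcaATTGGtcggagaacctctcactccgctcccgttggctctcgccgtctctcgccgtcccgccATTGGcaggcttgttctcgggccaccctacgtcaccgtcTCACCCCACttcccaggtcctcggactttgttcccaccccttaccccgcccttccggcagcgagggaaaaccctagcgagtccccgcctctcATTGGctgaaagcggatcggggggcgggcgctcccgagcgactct
Lss: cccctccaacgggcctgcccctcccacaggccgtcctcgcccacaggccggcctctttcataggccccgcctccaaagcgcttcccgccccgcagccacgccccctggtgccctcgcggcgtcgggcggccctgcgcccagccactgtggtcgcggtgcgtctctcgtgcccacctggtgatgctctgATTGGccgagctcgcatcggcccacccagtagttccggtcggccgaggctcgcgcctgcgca

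Higher genes were fewer and came from several lists. Serpinb9b had 896 with S100a9 and 358 in the control (1.32). Its neighbour Serpinb9, an inhibitor of the cytotoxic protease granzyme B, had 357 and 237 (0.59; further probe set 0.43), and Serpinb6a, another member of clade B, 5044 and 4108 (0.30). Serpinb1a, an inhibitor of neutrophil proteases, was lower (−0.25), and the 5 compared clade B genes had a median of 0.30. Dynap, a transmembrane protein gene, had 504 against 278 (0.86). The secreted proteases Htra1 (204 against 123, 0.73; further probe set 0.63) and Klk10 (337 against 214, 0.66) were higher, whereas Klk7 was not (−0.09). Pdgfc, a growth factor, had 521 against 320 (0.71) and its further probe set gave 0.64. Sbsn (0.67), Tmem117 (0.67) and Gbe1 (0.63), the glycogen branching enzyme, were also higher with S100a9. Usp17la (0.65) is a deubiquitinase gene with near-identical copies, so its signal is uncertain.

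Both Sqor and Suox of the sulphur metabolism list were at least 1.5-fold higher. Sqor, which oxidises hydrogen sulphide in mitochondria, had 1723 with S100a9 and 1079 in the control (0.67). Suox, sulphite oxidase, at the end of the same route, had 753 and 478 (0.65). Ethe1, the dioxygenase between them, had 838 and 705 (0.25), inside the central 95% of genes of its brightness (−0.41 to 0.33). Of the 8 compared sulphur genes 6 were higher with a median of 0.17, and Csad, which leads to taurine, was lower (−0.16).

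Redox and mitochondrial genes lay slightly above control in number rather than in size. Of 28 compared NRF2, glutathione and redox genes 23 were higher (median 0.11) and 0 by 1.5-fold. Blvrb, biliverdin reductase B, had 1972 against 1428 (0.47), Taldo1, of the pentose phosphate route, 2058 against 1576 (0.39) and Srxn1, which repairs oxidised peroxiredoxins, 907 against 714 (0.35). Nqo1 (−0.06) and Hmox1 (0.00), both classical NRF2 targets, were near control. Oxidative phosphorylation genes had 39 of 49 higher (median 0.06), from Atp5b (−0.19) to Ndufb7 (0.22), and mitochondrial ribosome genes 49 of 66 (0.08), up to Mrpl49 (0.39). Proteasome subunits had 24 of 31 higher (0.04). With each array centred on its median these counts were 36, 46 and 21, and with quantile normalization 40, 51 and 25.

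**Figure D5:**
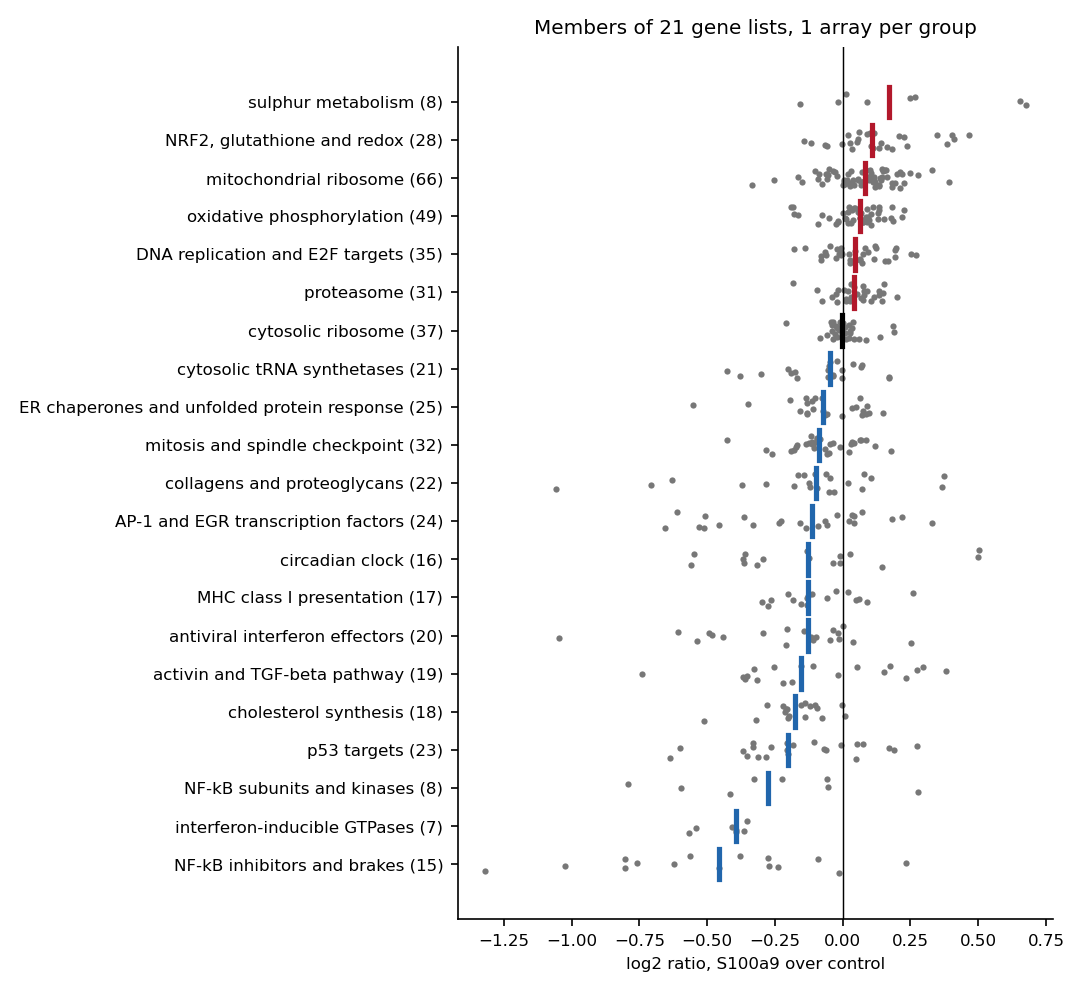
Log2 ratios, S100a9 over control, of the compared members of 21 gene lists (number of members in brackets), 1 array per group; the thick mark is the list's median. NF-kB inhibitors and brakes (−0.46) and interferon-inducible GTPases (−0.39) have the lowest medians shown and sulphur metabolism (0.17) the highest. Some lists left out of the figure lay further out, such as the neutrophil chemokines (−0.88) and the clade B serpins (0.30).

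Growth-related lists stayed close to control. DNA replication genes had 21 of 35 higher (median 0.05), while genes of mitosis had 23 of 32 lower (−0.09), led by Cenpe (−0.43), a kinetochore motor, and Mki67 (−0.26). Cytosolic ribosome genes were spread around 0 (16 higher, 21 lower). Of 21 cytosolic tRNA synthetase genes 16 were lower (−0.05), with Nars (3776 against 5077, −0.43) and Cars (−0.38) lowest. Among circadian clock genes 12 of 16 were lower (−0.13), yet Cry1 (488 against 344, 0.50) and Dbp (537 against 380, 0.50) were higher. The metallothionein genes Mt1 and Mt2, which respond to zinc that S100a9 can bind, were both at 0.02.

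Both proteins were read against the same control array, so their ratios share its error. For Cxcl10 the S100a8 array had 529.8 beside 604 with S100a9, for Ccl2 576 beside 813 and for Serpinb9b 923 beside 896. With S100a8, 32 genes (0.287%) were at least 2-fold lower. Of the 35 genes that far below control with either protein, 3 were further from control with S100a9: Fubp1 (−1.10 with S100a9, −0.99 with S100a8), Cxcl5 (−1.07 and −0.89) and Rph3a (−1.03 and −0.51). These 3 reached 2-fold with S100a9 alone. A gene that entered the 35 through 1 protein alone is further from control with that protein by selection. The count therefore does not compare the 2 proteins. Chosen after their values were seen, Pik3cd, Defb1 and Hoxa3 were low on the S100a9 array alone. Pik3cd, a lipid kinase subunit, had 2328 with S100a9, 3835 in the control and 3773 with S100a8. Defb1, an epithelial defensin, had 106, 196 and 203, and the homeobox gene Hoxa3 85.5, 136 and 135. No replicate shows whether such a difference would recur.

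Genes at the floor on 1 array give only bounds, and their signals are noisy. Rph3a, a vesicle protein gene, was at least 2.04-fold lower (control signal 155), Gh, the gene of growth hormone, at least 1.53-fold lower and Zfp229 at least 1.45-fold lower. Tcam1 was at least 1.62-fold, the prolactin gene Prl 1.51-fold and the channel subunit gene Kcnab3 1.47-fold higher or more.

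The line was checked against markers of its labelled origin and of other cells. Of 27 epithelial and intestinal genes 8 were compared. Krt18, a keratin of simple epithelia, had 1236 with S100a9 and 1447 in the control, and Krt20, an intestinal keratin, 325 and 326, whereas Cdh1 (40.4 and 39.7), Krt19 (31.2 and 27.1) and Vil1 (17.7 and 17.9), defining epithelial genes, lay below the floor. Mesenchymal genes were measured, such as Vim (15407 and 16033), and their median was −0.02. Of 20 macrophage and granulocyte markers 9 were compared, 7 of them higher with a median of 0.23, among them Lyz1 (189 and 120), Cd53 (202 and 135) and Cd68 (396 and 273). The defining leukocyte genes Ptprc (35.9 and 32.0), Itgam (9.31 and 10.8) and Adgre1 (58.4 and 57.7) were below the floor on both arrays. Fibroblast markers had 5 of 7 lower (−0.17). In bulk RNA, fewer cells of a type and less RNA per cell cannot be told apart, and the part of these markers in the ratios above was not tested.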

How the data were processed

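The authors deposited 1 linear intensity per probe set. The submitters' processing notes name MAS5; version and scaling target: not given in the sources used here. There were 45101 probe sets on 3 arrays, and 0 other sample columns. Because MAS5 takes mismatch signal off each value, dim values are noisy, and any change in total RNA per cell is lost in array scaling. The platform annotation, which can be old, named 1 gene for 34945 probe sets and several genes for 932, and 9160 were not listed; the 64 AFFX controls were used for quality only. The 34741 probe sets matched by Entrez number to RefSeq changed 0 symbols. Listed genes without a probe set of their own were not analysed here.

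Signals under the floor (50th percentile, 75.97) were set to it before log2 was taken here from the deposited intensities. A gene took its brightest probe set over the 3 arrays. The S100a9 value minus the control value is the log2 ratio, and 2-fold and 1.5-fold serve as descriptive sizes. Genes named were the 15 highest and the 15 lowest among those measured above the floor in both cultures, without clone names or genes whose other probe set went the other way, the first 3 each way with 1 of the arrays at the floor, as many as 4 highest and 4 lowest members of each described list, all cholesterol synthesis genes, and the receptor and S100 genes; other names were chosen after their values were seen. The members and the 77 lists were chosen with earlier results of these data known. Promoters came from RefSeq (GRCm38.p6). Alternatives were median centring, quantile normalization, other floors, no floor, no filter and other choices of probe set. The scripts were tested on simulated data, with Python 3.11.15, numpy 2.4.6, pandas 2.3.3 and matplotlib 3.10.9. The number of arrays limits the precision.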

Additional observations from a re-analysis of the deposited data

Results flagged for a closer look

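Probe sets without a single gene symbol stand outside the gene comparison. Of 2793 such probe sets above the floor on both the S100a9 and the control array, 2 were at least 2-fold higher with S100a9, with signals of 787.5 against 305 and 696 against 228. At least 2-fold lower were 19, the lowest with signals of 83.3 against 266. This signal was noticed because these probe sets belong to no comparison above.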

How the results depend on the processing

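No paired analysis was possible because each group held 1 array and the result comes from no test. Over the alternatives run, 29 of 32 counts of genes stayed within 1.5 times their value, and 572 of 615 list medians and 259 of 277 ratios of named genes moved by no more than the spike-in SD of 0.078. Part of this was fixed in advance. Dropping the filter leaves the ratio of a compared gene unchanged, and a gene with 1 probe set has no other to choose. A floor at the 30th percentile gave 3 genes in place of 1 at least 2-fold higher, and 49 in place of 28 at least 1.5-fold higher. A floor at the 65th percentile gave 15 of the latter. The median of the NF-kB inhibitors and brakes was −0.34 with the mean of all probe sets in place of −0.46. The median of the syndecans and glypicans was 0 when probe sets without _x_at or _s_at endings came first, in place of −0.09. At the 30th and 65th percentile floors 14242 and 8829 genes were compared, in place of 11138. With no filter on dim genes 18193 were compared, and 28 were at least 1.5-fold higher, as in the main setting. The cause of the changes in these counts and medians was not tested. The median of the neutrophil chemokines ran from −0.94 to −0.47 over the alternatives. That of the clade B serpins ran from 0 to 0.44, that of the macrophage and granulocyte markers from 0 to 0.31 and that of sulphur metabolism from 0.01 to 0.18. The median over all genes stayed between −0.00598 and 0.031. Signals near the floor limit what can be read of dim genes.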

Other observations

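Probe sets that the annotation gives no single gene symbol were low with S100a9 more often than named ones. Of the 2793 above the floor on both arrays, 175 (6.27%) were at least 1.5-fold lower, against 308 of 18700 (1.65%) probe sets with 1 symbol. Shares at least 1.5-fold higher were 0.394% and 0.38%. The unnamed probe sets were dimmer, with a median control signal of 176 against 365. On the S100a8 array, read against the same control, 9.48% and 2.89% were at least 1.5-fold lower. The bright nuclear long noncoding RNA Malat1 had a signal of 7138 with S100a9 and 11390 in the control (−0.67), and its further probe sets ran from −1.31 to 0.14. Clk1, a kinase of splicing factors, was at −0.63, and Srek1, a splicing regulator, at −0.64. What these probe sets measure was not tested.

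Smaller sets of genes lay on both sides. Of 25 compared ATF4 and amino acid response genes 19 were lower (median −0.07), with Chac1, which breaks down glutathione, at −0.36 and Slc7a11, which imports cystine, at 0.41. Of 20 autophagy genes 14 were lower (−0.06), with Sqstm1, the cargo receptor p62, at −0.53 (3611 against 5214) and Atg7 at 0.36. Histone variant genes H3f3b (−0.74) and H3f3a (−0.49) were lower, while H2ax was at 0.26. Among angiogenic genes Vegfb was at −0.42 and Angpt2 at 0.50.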
